A study of Mus musculus with 10 samples.

Results

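Popliteal lymph nodes of adjuvant arthritis (AIA) mice were compared with nodes of saline-injected Control mice, across all genes. The comparison used 7 of the 10 libraries of the series, chosen by their group labels: Control 15, 16 and 17 and AIA 5, 10, 31 and 38. The other 3 belong to an acupuncture group and entered only 1 alternative fit. All animals were labelled as male BALB/c mice of 6 to 8 weeks with no genetic change named, and the libraries were labelled day 15. The AIA mice had received 0.1 ml of complete Freund's adjuvant (mineral oil with killed mycobacteria) under the skin of the right hind paw, and the Control mice the same volume of saline. The protocols call the adjuvant group AA and the library labels call it AIA. The labels do not say which side the node came from or that each library is from its own mouse, so the spread between libraries may be technical.

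The popliteal node drains the hind paw. In a draining node, phagocytes take up mycobacterial material and sense its glycolipids and sugars through C-type lectins and Toll-like receptors, and they make interleukin 1 and chemokines that call in monocytes and neutrophils. Naive lymphocytes enter from the blood through high endothelial venules and follow CXCL13 and CCL21 into the B and T cell areas. Activated B cells divide, switch their antibody class and become plasma cells, whose endoplasmic reticulum (ER) expands to fold antibody.

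The libraries, all labelled lymph node, were unlike in tissue content, and Control 15 and Control 17 held little B and T cell RNA. Whether these libraries are lymph node was not tested. The 8 B cell marker genes averaged 6.33 on the log2(FPKM + 1) scale in Control 16 and lay between 5.93 and 6.60 in AIA, but 0.56 in Control 15 and 0.28 in Control 17. FPKM are fragment counts divided by gene length and by the size of the library. The 8 T cell markers averaged 4.76 in Control 16, 5.36 to 5.55 in AIA, 0.49 in Control 15 and 0.44 in Control 17. Control 16 was thus the single Control library with lymphocyte RNA near the AIA level. Fat cell markers averaged 10.19 in Control 15, 8.15 in Control 16, 1.31 in Control 17, against 1.91 to 4.04 in AIA, and skeletal muscle markers averaged 8.67, 10.60, 1.26 and 1.27 to 7.82. Prl8a2, a prolactin of the decidua of the pregnant uterus, was 1.36, 0.276 and 10739 FPKM in Control 15, 16 and 17 and at most 0.480 FPKM in AIA. The library labelled Control 17 therefore does not look like the others of its group, and results are given with and without it. AIA 10 stood apart as well, with 15116 genes above 0 against 21224 to 23081 in the other 6 libraries and with 1.34% of FPKM from mitochondrial genes, against 5.72% to 34.2%. Immunoglobulin genes made up 16.2% to 39.6% of summed FPKM in AIA and 0.0326%, 1.11% and 0.0201% in Control 15, 16 and 17. In such bulk samples fewer cells of a type and less RNA per cell cannot be told apart.

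**Figure D1:**
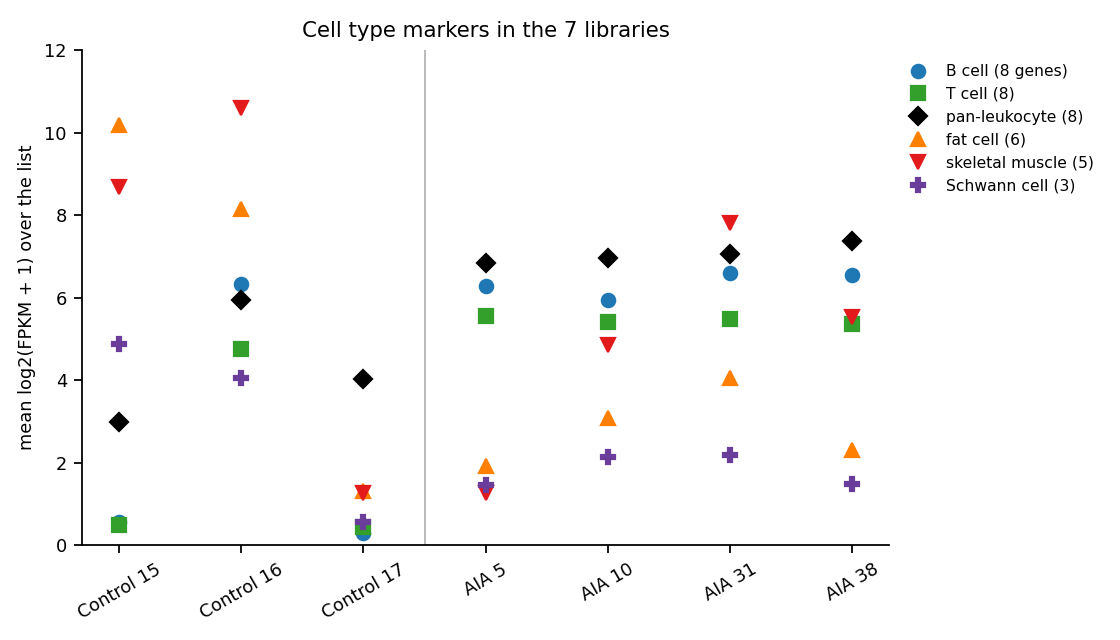
Mean log2(FPKM + 1) of 6 marker lists (symbols) in each of the 7 libraries (horizontal axis), Control to the left of the grey line. B and T cell markers are near 0 in Control 15 and Control 17, and Control 16 has lymphocyte markers close to the AIA libraries beside high fat and muscle markers.

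With all 7 libraries, 340 of 15804 genes were higher in AIA (2.15%) and 444 were lower (2.81%) at a limma adjusted p under 0.05. Without the library labelled Control 17, 383 were higher (2.42%) and 1057 lower (6.69%). Both fits called 260 genes higher and 397 lower. Against Control 16 alone limma called 0 genes, with a smallest adjusted p of 0.0634. At an unadjusted p under 0.05 there were 2279 in that fit, and limma's voom on recovered reads called 3. The counts rest on Control 15: with neither it nor Control 17 in the fit none of the 1440 calls passed, although all kept their direction. Leaving out AIA 38 instead left 46 higher and 196 lower, leaving out AIA 5 left 67 and 254, leaving out AIA 31 left 141 and 536, and leaving out AIA 10 gave 945 and 1391.

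Agreement of Control 16 was therefore counted gene by gene. A gene agreed where all 4 AIA libraries lay on one side of Control 16 and the AIA mean was at least 1 away on the log2(FPKM + 1) scale, in the direction found without Control 17. By that rule 1259 tested genes agreed as higher (7.97%) and 1801 as lower (11.4%), with or without a limma call. Among called genes, 382 of the 383 higher and 1010 of the 1057 lower agreed. Agreement against all 3 Control libraries was met by 682 tested genes as higher (4.32%) and 593 as lower (3.75%), of which 281 and 443 were called. Of the called genes, 47 higher and 289 lower had the opposite sign against Control 17. Control 16 is part of both fits, so its agreement is a description of these libraries and not a second sample. Of the 383 genes called higher 32 were immunoglobulin genes.

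**Figure D2:**
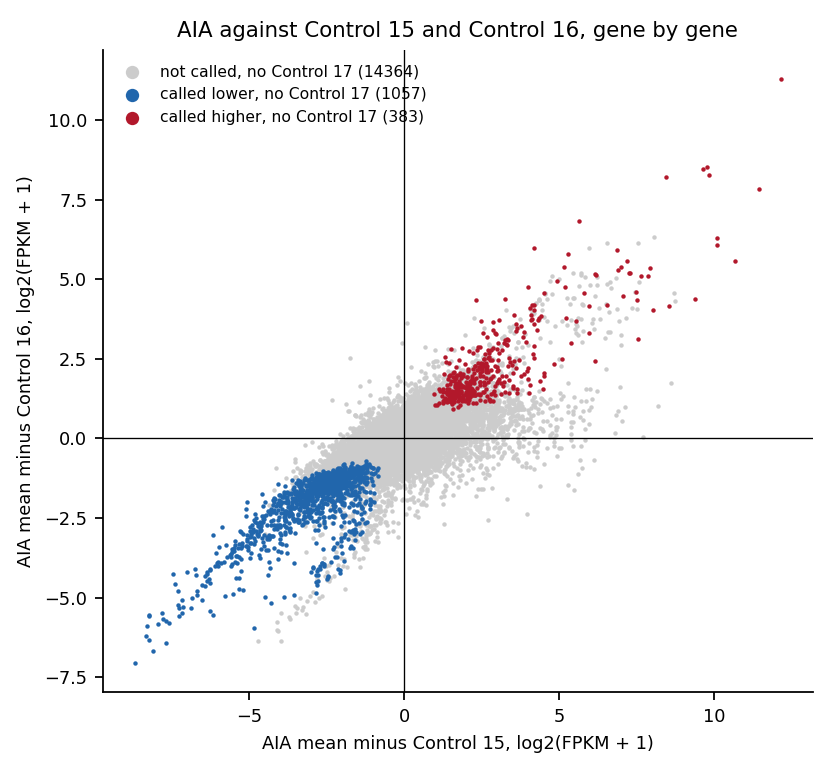
Each point is 1 of 15804 tested genes, with the AIA mean minus Control 15 on the horizontal axis and minus Control 16 on the vertical axis, both on the log2(FPKM + 1) scale. The 383 red and 1057 blue genes, called without Control 17, lie away from 0 on both axes, and a band of uncalled genes is high against Control 15 and near 0 against Control 16.

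Slpi, Jchain and S100a9 were among the genes that stood farthest from every Control library. By a rule that took the 14 genes per direction with the largest distance to the nearest Control library, the higher genes were Jchain, S100a9, Slpi, Mzb1, Saa3, Eaf2, Stfa2l1, Ccl8, Acod1, Il1b, Fpr2, Ccl12, Cxcl5 and Serpina3g, out of 216 that qualified. Slpi, a secreted inhibitor of neutrophil elastase, was 0.103, 1.54 and 37.1 FPKM in Control 15, 16 and 17 and 901, 1745, 587 and 697 FPKM in AIA 5, 10, 31 and 38. The lowest AIA library was far above the highest Control library. Its log2 difference was 9.06 (SE 0.58, limma adjusted p = 0.00296) without Control 17 and 7.56 (adjusted p = 0.0201) with all 7. The gene spans 164354070 to 164389095 of chromosome 2 (mm10, minus strand). Jchain, which links antibody units in plasma cells, was 4.47, 5.32 and 0.776 FPKM in Control and 2040, 2557, 1534 and 1582 FPKM in AIA. Mzb1, a chaperone of antibody assembly, had 50.5 FPKM in Control 16, at most 0.605 in the other Control libraries and 852 to 1659 in AIA. Both are genes of antibody-secreting cells, and Mzb1 shows the lymphocyte content of Control 16 more than Jchain does.

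Acod1, the enzyme that makes itaconate in activated macrophages, was listed at 0 in Control 15 and Control 16, was 0.472 FPKM in Control 17 and was 34.7, 13.9, 12.9 and 13.8 FPKM in AIA 5, 10, 31 and 38. Groups did not overlap, as the rule required, and 1 AIA library was well above the other 3. Its log2(FPKM + 1) difference was 4.18 without Control 17 (SE 0.45, limma adjusted p = 0.00969) and 3.99 with all 7 (adjusted p = 0.0119). Saa3, an acute phase amyloid made by macrophages and stroma, was at most 0.575 FPKM in Control and 79.1, 84.7, 8.36 and 6.59 FPKM in AIA. AIA 5 and 10 were thus far above AIA 31 and 38 for this gene, and all 4 were above the Control libraries (difference 4.54, adjusted p = 0.0463). Fpr2, a formyl peptide receptor of phagocytes, was at most 0.704 FPKM in Control and 44.1, 12.9, 13.1 and 19.3 FPKM in AIA (difference 4.07, adjusted p = 0.0106). Stfa2l1, a stefin inhibitor of cathepsins, was listed at 0 in Control 15 and 17, was 0.313 FPKM in Control 16 and was 15.8, 46.2, 2.99 and 26.4 FPKM in AIA. It belongs to a family of near-identical genes, so its reads could be split among copies. Eaf2, an elongation factor partner found in plasma cells, was at most 0.666 FPKM in Control and 28.4, 40.1, 22.7 and 18.5 FPKM in AIA (difference 4.12, adjusted p = 0.00969).

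The 14 lower genes were Cdo1, Me1, Gsn, Gpihbp1, Fhl1, Rbp4, Lims2, Cavin1, Smoc1, Npr2, Cd59a, Gpt2, Dbi and Aspg, out of 415 that qualified. Many of them are abundant in fat, muscle and small vessels. Rbp4, the retinol carrier that fat tissue and liver secrete, was 486, 111 and 21.6 FPKM in Control 15, 16 and 17 and 0.210, 0, 5.03 and 0.998 FPKM in AIA 5, 10, 31 and 38. Gsn, an actin-severing protein, was 4769, 758 and 621 FPKM in Control, against 27.0 to 63.3 FPKM in AIA (difference −5.41, SE 0.76, limma adjusted p = 0.0114). Cdo1, which oxidises cysteine, went with a difference of −6.34 (adjusted p = 0.00969) and the malic enzyme gene Me1 with −5.50 (adjusted p = 0.0140). Fat markers were also high in Control 15 and 16. Control 17, which does not look like the others of its group, had a fat marker mean of 1.31, below all 4 AIA libraries. It had 108 FPKM of Cdo1 and 54.1 FPKM of Me1. Npr2, the receptor for C-type natriuretic peptide on chromosome 4 at 43631935 to 43651244, was 30.5, 16.5 and 26.5 FPKM in Control and 1.40, 0.454, 1.25 and 0.857 FPKM in AIA (difference −3.58, SE 0.38, adjusted p = 0.00969). Cd59a, which guards cells against complement, was 45.8, 16.1 and 30.9 FPKM in Control, against 0.565 to 1.62 FPKM in AIA (difference −3.85, adjusted p = 0.0106). Gpihbp1, which holds lipoprotein lipase on capillaries, was 125, 36.7 and 65.4 FPKM in Control, against 0.518 to 4.14 FPKM in AIA. The part of tissue content in these differences was not tested.

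**Figure D3:**
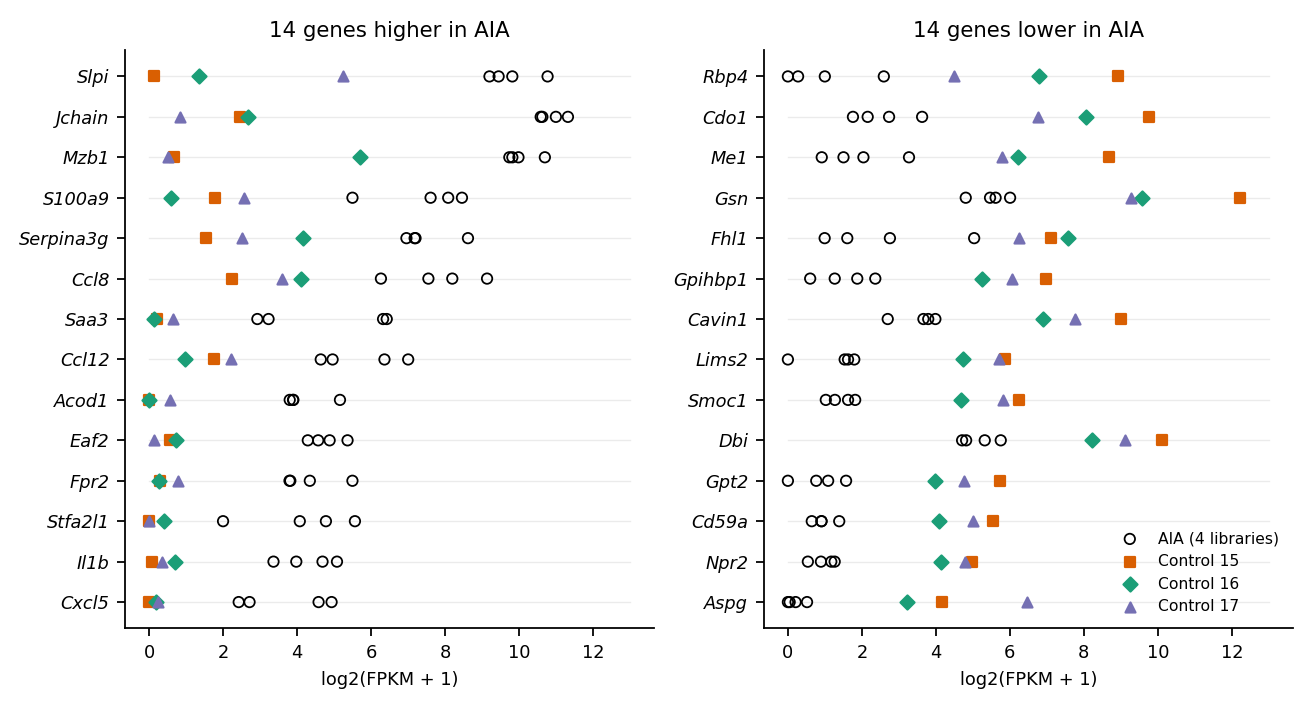
log2(FPKM + 1) of the 14 higher and 14 lower genes in each library, open circles for the 4 AIA libraries and filled symbols for the 3 Control libraries. The rule that chose these genes allowed no overlap between groups. The 3 Control libraries differ among themselves by several units for Slpi, Mzb1, Rbp4 and Gsn.

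The level of leukocyte RNA also differed between the groups. The 8 pan-leukocyte genes, such as Ptprc (CD45), averaged 2.98, 5.94 and 4.04 in Control 15, 16 and 17, against 6.83 to 7.37 in AIA. When the libraries were set to the same level of these 8 genes, the median difference of all genes moved from −0.01 to −2.02 without Control 17, and the split became 142 higher and 6072 lower. With all 7 libraries it became 224 and 9787. Among the 142 higher genes, 45 were also called higher before this scaling. By kind, 124 of the 142 were immunoglobulin genes and 15 were protein-coding genes of other kinds. These 15 included Slpi (7.57), Jchain (5.85), Mzb1 (4.84), S100a9 (3.84), S100a8 (3.39), Acod1 (3.12), Saa3 (3.04), Stfa2l1 (2.89), Il1b (2.59), Cxcl5 (2.59) and Bhlha15 (2.46), a transcription factor of secretory cells that was picked out after its value was seen. These values are without Control 17, which held 453 FPKM of S100a8. Il1b was the only member of the inflammasome and IL-1 list among them, and 1 of that list's 17 tested genes was lower under this scaling. Below, directions of lists are relative to the median of all genes. Without Control 17 the sign of this relative median was the same under the pan-leukocyte scaling for all lists with more than 1 tested gene except amino acid transport, ER-to-Golgi traffic and matrix proteases. Taking off the median of all genes removes most of the shift that the scaling adds, so the sign could hardly change. It says nothing on leukocyte content. Before that step the median moved below 0 for some lists, such as receptors of mycobacterial material (1.46 to −0.80) and ER folding (1.56 to −1.025). It stayed above 0 for others, such as plasma cell genes (2.41 to 0.61). Of the 114 genes named in the text that limma called without Control 17, 16 had the other sign under this scaling before the shift of all genes was taken off, among them Igtp, Iigp1, Cxcl9, Mcm2, Mcm3, Mcm5 and Sec11c.

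Of 24 tested genes for receptors of mycobacterial material, 7 rose and 0 fell without Control 17, as with all 7 libraries, beside 2.42% and 6.69% of all genes, and 12 agreed as higher in Control 16. Without AIA 5 the count was 2, without AIA 38 it was 3, and without Control 15 it was 0. The list's median was 1.46, against −0.01 for all genes. Under the pan-leukocyte scaling 0 of the 24 were higher and 3 were lower, and 4 were above 0. Clec4n (Dectin-2), which binds mannose-rich glycans, was 0.600, 7.38 and 1.05 FPKM in Control 15, 16 and 17 and 91.9, 46.1, 50.7 and 90.5 FPKM in AIA 5, 10, 31 and 38. Clec4e (Mincle), the receptor for mycobacterial cord factor, was 0, 0.130 and 1.80 FPKM in Control and 14.5, 6.72, 4.68 and 5.11 FPKM in AIA. Clec4d, its partner, was at most 0.989 FPKM in Control, against 8.02 to 28.5 FPKM in AIA. All 3 lie within one stretch of chromosome 6, at 123229843 to 123247021 for Clec4n, 123262111 to 123275265 for Clec4d and 123281789 to 123289870 for Clec4e. Their log2 differences were 4.20 (SE 0.68, limma adjusted p = 0.0165), 2.91 (SE 0.46, adjusted p = 0.0147) and 3.39 (SE 0.60, adjusted p = 0.0216) for Clec4n, Clec4e and Clec4d. Clec7a (Dectin-1), which binds fungal glucans, was 4.38, 1.496 and 11.1 FPKM in Control, against 44.8 to 64.9 FPKM in AIA. Clec4a3 rose by 2.15 (adjusted p = 0.0309). Tlr1, which pairs with TLR2 for bacterial lipopeptides, had the opposite sign against Control 16. It was 47.4 FPKM there and 61.4, 8.17, 54.7 and 36.7 FPKM in AIA.

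In the inflammasome and IL-1 list 5 of 17 tested genes rose (2.42% of all genes did without Control 17) and 0 fell, in both fits. Without AIA 38 or AIA 5 the count was 2, and without Control 15 it was 0. Il1b was 0.0638, 0.611 and 0.273 FPKM in Control 15, 16 and 17 and 24.7, 32.8, 9.27 and 14.7 FPKM in AIA. Its difference was 3.88 (SE 0.52, limma adjusted p = 0.0106). Il1rn, the natural antagonist of the IL-1 receptor, rose by 3.13 (SE 0.32, adjusted p = 0.00969), from 0.129 to 0.637 FPKM in Control to 8.99 to 13.4 FPKM in AIA. Thus ligand and antagonist rose together. Il18 rose by 2.94 (adjusted p = 0.0269) and Pycard, the inflammasome adaptor, by 2.12 (adjusted p = 0.0404). Il1a, at 1.96 (adjusted p = 0.114), did not pass, and AIA 10 (1.03 FPKM) overlapped Control 16 (1.11 FPKM). Aim2, a sensor of DNA, did not pass without Control 17 (adjusted p = 0.357), and stood at −0.31 against Control 16.

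Of 15 tested neutrophil granule genes 5 rose (2.42% of all tested genes did) and 0 fell, with 4 rising in the fit of all 7. The count was 1 without AIA 38 and 2 without AIA 5. Under the pan-leukocyte scaling 2 of the 15 were higher and 1 was lower. S100a9, a subunit of calprotectin, was 2.45, 0.496 and 4.87 FPKM in Control and 270, 194, 44.1 and 350 FPKM in AIA 5, 10, 31 and 38. S100a8, its partner, was 0.964 and 0.373 FPKM in Control 15 and 16 but 453 FPKM in Control 17, against 10.9 to 249 FPKM in AIA. Its difference was 5.54 without Control 17 (limma adjusted p = 0.0282) and 2.83 with it (adjusted p = 0.399). The call on S100a8 thus depended on the library labelled Control 17, and that on S100a9 did not (5.77 with all 7, adjusted p = 0.0165). Lcn2, which binds bacterial siderophores, rose by 3.27 (adjusted p = 0.0316). Mcemp1 rose by 2.59 (adjusted p = 0.0361), and Retnlg, at 2.74 (adjusted p = 0.0842), did not pass. AIA 38 had the highest S100a9, S100a8, Lcn2 and Retnlg of the AIA libraries, and AIA 31 had the lowest S100a9, S100a8 and Retnlg. Elane and Prtn3, proteases of primary granules picked out after their values were seen, did not pass. Elane was 2.10, 1.25 and 0 FPKM in Control 15, 16 and 17 and 0.624, 0, 0.0572 and 17.4 FPKM in AIA 5, 10, 31 and 38. Prtn3 was 5.44, 1.53 and 0 FPKM in Control and 0.945, 0.611, 0.195 and 14.6 FPKM in AIA. Both were thus below Control 15 and 16 in every AIA library but AIA 38. The granule genes Ngp and Camp, made by immature neutrophils and below the expression filter, were 70.8 and 34.5 FPKM in AIA 38, at most 1.67 FPKM in the other AIA libraries and at most 0.161 FPKM in Control.

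Protease inhibitors were the list with the largest median of these innate groups, at 2.60 without Control 17, with 7 of 17 tested genes higher and 0 lower (1 higher without AIA 38 and 3 without AIA 5). Of all tested genes 2.42% were called higher. Under the pan-leukocyte scaling 3 of the 17 were higher and 2 were lower. Slpi, given above, led the list. Serpina3g, an inhibitor of cathepsins in lymphocytes, was 1.91, 17 and 4.64 FPKM in Control and 123, 146, 144 and 392 FPKM in AIA (difference 4.64, limma adjusted p = 0.0203). Timp1, an inhibitor of matrix metalloproteases, was 1.51, 1.89 and 40.9 FPKM in Control and 22.0, 129, 32.1 and 33.1 FPKM in AIA. Its difference was 3.99 (adjusted p = 0.0188) without Control 17 and 2.67 (adjusted p = 0.151) with it. Cst7, a cystatin of killer and myeloid cells, showed the same dependence, with 68.8 FPKM in Control 17, 3.36 without that library (adjusted p = 0.0147) and 1.69 with it (adjusted p = 0.395). Of the phagocyte oxidase and lysosome genes 3 of 21 rose. Ctss, the cathepsin that trims the MHC class II chaperone, rose by 2.61 (adjusted p = 0.0243) and Cybb, the core of the phagocyte oxidase, by 2.60 (adjusted p = 0.0132). Lyz2, lysozyme, was 344, 436 and 93.3 FPKM in Control, against 1739 to 2939 FPKM in AIA. Its adjusted p was 0.0506 without Control 17 and 0.0404 with it.

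Of 21 tested inflammatory chemokines 9 rose without Control 17 and 10 with it, 0 fell, and 15 agreed as higher and 2 as lower in Control 16. The median was 2.20. Without AIA 38 the count was 1, without AIA 5 it was 3, and without Control 15 it was 0. Of all tested genes 2.42% were called higher without Control 17 and 7.97% agreed as higher. Under the pan-leukocyte scaling 1 of the 21 was higher and 3 were lower. Ccl2, Ccl7, Ccl12 and Ccl8 are ligands for monocytes that lie in this order on chromosome 11 between 82035571 and 82116799. Ccl8 was 3.69, 16.3 and 11.1 FPKM in Control 15, 16 and 17 and 292, 561, 75.9 and 186 FPKM in AIA 5, 10, 31 and 38 (difference 4.62, SE 0.86, limma adjusted p = 0.0245). Ccl12 was at most 3.64 FPKM in Control and 30.1, 127, 23.9 and 81.2 FPKM in AIA (4.38, adjusted p = 0.0163). Ccl7 rose by 3.94 (adjusted p = 0.0187) and Ccl2 by 3.65 (adjusted p = 0.0106). All 4 were lowest in AIA 31 or AIA 5 and highest in AIA 10. None overlapped between groups, which for Ccl8 and Ccl12 the rule that named them above required. Cxcl5, which draws neutrophils, was at most 0.175 FPKM in Control and 22.9, 29.5, 4.35 and 5.56 FPKM in AIA (3.56, adjusted p = 0.0335), the same split of AIA 5 and 10 from AIA 31 and 38 as for Saa3. Ccl5 and Ccl22, made by T cells and dendritic cells, stood at 1.54 (adjusted p = 0.326) and 2.03 (adjusted p = 0.267) without Control 17, and at −0.29 and −0.22 against Control 16.

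Of 6 tested homeostatic chemokines, which lay out the resting node, 0 passed. The list's other 2 members, Ccl19 and Ccl21a, were not analysed here. Cxcl13, which draws B cells into follicles, was 5.29, 278 and 0.227 FPKM in Control 15, 16 and 17 and 116, 138, 217 and 362 FPKM in AIA. Control 16 lay inside the AIA range. Cxcl14 was 2982 FPKM in Control 17, against 4.25 to 36.1 FPKM in the other 6 libraries. Among 19 chemokine receptors 3 rose, and Fpr2 led them. Ccr7, which guides naive T cells and dendritic cells, was 59.6 FPKM in Control 16, 70.6 to 109 FPKM in AIA and at most 0.823 FPKM in Control 15 and 17 (3.16, limma adjusted p = 0.150). Cxcr5, the CXCL13 receptor of follicular B cells, was 24.9 FPKM in Control 16, against 5.11 to 56.8 FPKM in AIA. The direction of the homeostatic list's median differed among Control libraries, at −0.15 against Control 16 and 0.26 and 0.24 against Control 15 and 17.

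**Figure D4:**
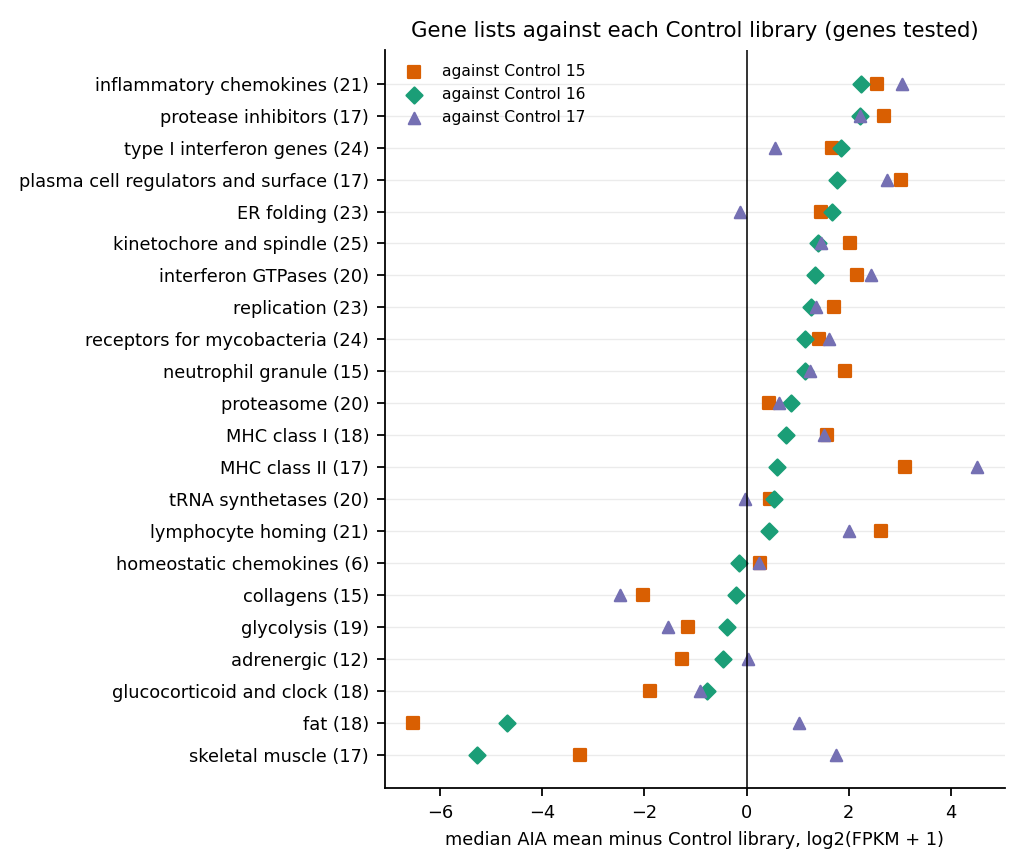
Median over the tested genes of each list (number in brackets) of the AIA mean minus 1 Control library, on the log2(FPKM + 1) scale, with 1 symbol per Control library and lists ordered by Control 16. The inflammatory chemokine, protease inhibitor, plasma cell, kinetochore and replication lists are above 0 against all 3 Control libraries, while fat and muscle lists are below 0 against Control 15 and 16 and above 0 against Control 17.

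Of 24 tested type I interferon genes 6 rose without Control 17, and of 20 interferon GTPase and chemokine genes 8 did. Of all tested genes 2.42% were called higher. Without AIA 38 or AIA 5 both list counts were 0. Under the pan-leukocyte scaling 0 of either list passed, and 7 of the 24 and 2 of the 20 were above 0. Promoters with an interferon-type element are shown first because many members carry it. The element GAAA, any 2 bases, GAAA (ISRE, read on both strands) was found in 11 of the 18 type I interferon genes that have a RefSeq promoter window (61.1%) and in 10 of 13 interferon GTPase genes (76.9%). It was in 408 of 10289 tested genes with a window (3.97%). Windows ran from 250 bases before to 50 after the start site on GRCm38.p6 (mm10), and the 250 bases before it are printed 5′ to 3′ with each match in capitals. Isg15 lies on the minus strand (chr4:156200819-156201068) and its capitals are overlapping matches, and Igtp lies on the plus strand (chr11:58199306-58199555).
Isg15: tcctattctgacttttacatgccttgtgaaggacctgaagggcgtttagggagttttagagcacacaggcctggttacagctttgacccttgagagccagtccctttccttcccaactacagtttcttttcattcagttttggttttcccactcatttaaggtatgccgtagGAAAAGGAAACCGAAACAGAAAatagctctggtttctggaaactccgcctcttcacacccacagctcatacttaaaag
Igtp: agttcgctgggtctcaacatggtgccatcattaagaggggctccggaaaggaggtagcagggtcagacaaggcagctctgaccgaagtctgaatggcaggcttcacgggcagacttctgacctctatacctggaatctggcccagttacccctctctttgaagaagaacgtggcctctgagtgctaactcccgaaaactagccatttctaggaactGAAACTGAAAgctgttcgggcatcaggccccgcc
A match is a description of these letters and not of a bound factor.

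Isg15, a ubiquitin-like protein, was 12.7, 15.2 and 69.2 FPKM in Control 15, 16 and 17 and 71.7, 266, 73.2 and 256 FPKM in AIA 5, 10, 31 and 38. AIA 10 and 38 were high and AIA 5 and 31 only just above Control 17. The difference was 3.22 (SE 0.67, limma adjusted p = 0.0323) without Control 17 and 2.47 (adjusted p = 0.0919) with it. Igtp, an interferon-inducible GTPase, was 13.7, 38.4 and 8.05 FPKM in Control and 119, 143, 110 and 175 FPKM in AIA (2.50, SE 0.49, adjusted p = 0.0284). Of the 24 type I interferon genes 18 agreed in Control 16, beside 7.97% of all tested genes that agreed as higher. With all 7 libraries 1 passed, Zbp1. Zbp1, a sensor of nucleic acid, was 1.36, 12.1 and 7.09 FPKM in Control, against 40.9 to 132 FPKM in AIA. Ifi44 rose by 2.80 (adjusted p = 0.0315) and Isg20 by 2.54 (adjusted p = 0.0227), and Oas3, at 2.68 (adjusted p = 0.0642), did not pass. AIA 10 and AIA 38 were the highest libraries for Isg15, Ifi44 and Oas3, and AIA 38 was the highest for Zbp1. Of the 20 interferon GTPase and chemokine genes 8 rose in each fit and 13 agreed in Control 16. Iigp1 rose by 2.32 (adjusted p = 0.0188) and Cxcl9 by 2.42 (adjusted p = 0.0286). Cxcl10 was 0.567 to 1.49 FPKM in Control and 13.8, 7.36, 16.05 and 77.4 FPKM in AIA, with an adjusted p of 0.05005 that just missed the threshold without Control 17 and of 0.0406 with it. Irf8 (2.34, adjusted p = 0.132) did not pass.

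Of 17 MHC class II genes Ctss alone rose, although the list's median was 1.96 and 13 of 17 were above Control 16. H2-Ab1 was 58.3, 287 and 19.7 FPKM in Control and 778, 1520, 541 and 692 FPKM in AIA (2.65, limma adjusted p = 0.0775), and Cd74, the invariant chain, was 370, 1332 and 60.7 FPKM in Control, against 2636 to 4276 FPKM in AIA (2.29, adjusted p = 0.120). Neither overlapped. H2-Ob, an inhibitor of peptide loading in resting B cells, was 62.5 FPKM in Control 16 and 66.3, 29.0, 73.6 and 46.1 FPKM in AIA, with H2-Oa likewise below Control 16 by 0.27. Of 18 MHC class I genes and of 20 proteasome genes 0 rose without Control 17, and with it Psmb9, an immunoproteasome subunit on both lists, did. Psmb9 was 14.02, 34.6 and 6.41 FPKM in Control and 90.8, 333, 75.2 and 95.5 FPKM in AIA. AIA 10 was far above the other 3 AIA libraries for Psmb9, and also for Psmb8 and Psmb10, at 311 and 778 FPKM. Fc receptors had 0 of 14 called without Control 17, and of 18 complement genes Cd59a alone fell, beside 6.69% of all tested genes called lower.

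Without Control 17, 10 of 17 tested plasma cell genes and 9 of 23 ER folding genes rose, and with all 7 libraries 7 and 3 did. Beside these counts, 2.42% and 2.15% of all tested genes were called higher in the same fits. Under the pan-leukocyte scaling 3 plasma cell genes and 0 folding genes were higher. Several folding genes carry the ER stress response element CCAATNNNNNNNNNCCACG (ERSE, read on both strands), and their promoters are shown because the element is rare. It was in 18 of the 10289 tested genes with a window (0.175%), in 7 of 19 ER folding genes (36.8%) and in 2 of 12 ERAD genes. It was in 0 of 19 N-glycosylation genes and 0 of 13 translocation and signal peptidase genes. Of those 18 genes 4 rose and 1 fell. The 250 bases before the start site are printed 5′ to 3′ with the element in capitals, for Creld2 (chr15:88819396-88819645, plus strand), Hsp90b1 (chr10:86705445-86705694, minus strand, with 2 elements in opposite orientation) and Derl3 (chr10:75893148-75893397, plus strand).
Creld2: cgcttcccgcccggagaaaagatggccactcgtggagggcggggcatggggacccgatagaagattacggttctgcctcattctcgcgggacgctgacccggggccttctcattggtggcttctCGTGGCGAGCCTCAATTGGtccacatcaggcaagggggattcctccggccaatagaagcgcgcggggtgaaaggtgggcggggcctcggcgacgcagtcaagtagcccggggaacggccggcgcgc
Hsp90b1: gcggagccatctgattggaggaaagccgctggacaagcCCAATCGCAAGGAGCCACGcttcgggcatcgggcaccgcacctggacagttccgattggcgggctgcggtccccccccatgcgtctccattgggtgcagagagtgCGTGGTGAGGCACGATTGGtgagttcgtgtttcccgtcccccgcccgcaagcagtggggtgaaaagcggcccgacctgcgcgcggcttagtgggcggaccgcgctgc
Derl3: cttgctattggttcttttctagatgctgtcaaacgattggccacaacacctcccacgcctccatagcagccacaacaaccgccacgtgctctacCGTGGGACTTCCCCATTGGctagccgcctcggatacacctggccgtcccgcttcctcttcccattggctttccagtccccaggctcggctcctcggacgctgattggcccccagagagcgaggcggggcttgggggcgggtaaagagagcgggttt
The 3 genes rose without Control 17, and with all 7 libraries Hsp90b1 did not pass.

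Of the 17 plasma cell regulators and surface genes 16 agreed in Control 16, and the median was 2.41. Without AIA 38 the called genes numbered 4, without AIA 5 they numbered 5, and without Control 15 there were 0. Besides Jchain, Mzb1 and Eaf2, Ly6c2, a surface protein of plasma cells and monocytes, was 2.62, 1.84 and 5.16 FPKM in Control and 21.5, 101, 25.2 and 49.9 FPKM in AIA (3.71, limma adjusted p = 0.0188). Pou2af1, a coactivator of antibody genes in all B cells, was 60.1 FPKM in Control 16, against 115 to 270 FPKM in AIA (4.29, adjusted p = 0.0824). Creld2, an ER chaperone, was 21.4, 16.96 and 64.0 FPKM in Control 15, 16 and 17 and 141, 192, 145 and 221 FPKM in AIA 5, 10, 31 and 38. It rose by 3.11 (SE 0.39, adjusted p = 0.0106). Derl3, a channel protein of ER-associated degradation (ERAD), was 1.28, 2.44 and 8.50 FPKM in Control and 69.5, 24.03, 54.9 and 42.4 FPKM in AIA. It rose by 4.02 (SE 0.48, adjusted p = 0.0106). Sdf2l1, an ER cochaperone, was 5.12 and 10.2 FPKM in Control 15 and 16 but 73.7 FPKM in Control 17, against 97.1 to 131 FPKM in AIA. Its adjusted p was 0.00969 without that library and 0.0752 with it. Hsp90b1 (2.63, adjusted p = 0.0276) and Manf (2.71, adjusted p = 0.0132) showed the same dependence, with adjusted p = 0.113 and 0.0748 with all 7. Control 17 was high in folding genes as a group. The 23 tested members had a median difference of 1.45 against Control 15, 1.67 against Control 16 and −0.13 against Control 17.

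In the ER folding list 19 of 23 agreed as higher in Control 16, and without AIA 38, AIA 31 or AIA 5 the called genes numbered 3, 4 and 4. In the translocation and signal peptidase list 4 of 20 rose, among them Sec11c, a signal peptidase subunit (2.46, limma adjusted p = 0.0354), Spcs3 (1.93) and Spcs2 (1.76). In the ERAD list Derl3 and Edem1 (2.66, adjusted p = 0.0113) rose, of 14, and with all 7 libraries 1 gene did. In N-glycosylation Krtcap2, a subunit of oligosaccharyltransferase, rose alone of 24 (1.88, adjusted p = 0.0268), and with all 7 libraries 0 did. In ER-to-Golgi traffic 0 of 22 passed, with a median of 0.44 that was −0.01 relative to all genes under the pan-leukocyte scaling. The aminoacyl-tRNA synthetases, which charge tRNAs for protein synthesis, had 0 of 20 called and a median of 0.52, while all 20 were above Control 16. Beside 2.42% of all genes called higher, several of these counts are small, and no difference between the lists was tested.

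Of 25 tested kinetochore and spindle genes 13 rose, 0 fell and 19 agreed in Control 16, with 12 rising in the fit of all 7. Of all tested genes 2.42% were called higher without Control 17 and 7.97% agreed as higher. Of 23 replication genes 9 rose, and 6 in the fit of all 7. Without AIA 10 these counts were 21 and 16, without AIA 31 they were 6 and 2, without AIA 5 they were 4 and 1, without AIA 38 they were 1 and 0, and without Control 15 they were 0 and 0. Under the pan-leukocyte scaling 0 of either list passed, and 14 of the 25 and 2 of the 23 were above 0. The groups did not overlap for 23 of the 25 and 19 of the 23, beside 12.2% of all tested genes that were higher in this way and 13.7% that were lower. The cell cycle homology region TTTGAA (CHR, read on both strands), which late cell cycle promoters often carry, was in 11 of 21 kinetochore genes with a window (52.4%). It was in 6 of 22 cyclin genes, in 3 of 17 replication genes (17.65%) and in 1501 of 10289 tested genes with a window (14.6%). The promoters of 2 mitotic regulators are printed as above with it in capitals, Cdk1 (chr10:69352913-69353162, minus strand) and Ccnb2 (chr9:70421555-70421804, minus strand).
Cdk1: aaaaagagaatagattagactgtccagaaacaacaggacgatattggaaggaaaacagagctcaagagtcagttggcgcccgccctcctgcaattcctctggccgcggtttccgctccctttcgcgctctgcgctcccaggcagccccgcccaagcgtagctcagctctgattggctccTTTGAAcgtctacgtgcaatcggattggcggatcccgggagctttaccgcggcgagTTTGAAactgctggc
Ccnb2: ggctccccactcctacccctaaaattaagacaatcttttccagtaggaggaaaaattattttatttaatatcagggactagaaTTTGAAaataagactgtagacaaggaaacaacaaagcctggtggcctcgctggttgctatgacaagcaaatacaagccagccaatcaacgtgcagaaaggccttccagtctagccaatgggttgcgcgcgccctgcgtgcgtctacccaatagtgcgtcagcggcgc
Cdk1, the kinase of mitotic entry, was 1.34, 1.44 and 2.39 FPKM in Control 15, 16 and 17 and 9.38, 25.8, 8.86 and 12.5 FPKM in AIA 5, 10, 31 and 38 (2.54, SE 0.46, limma adjusted p = 0.0224). Ccnb2, its cyclin, was 2.50, 2.62 and 2.98 FPKM in Control and 20.2, 27.1, 23.7 and 28.9 FPKM in AIA (2.86, SE 0.31, adjusted p = 0.00969). The 3 Control libraries were close to each other for Ccnb2, and the groups did not overlap for either gene.

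Plk1, a mitotic kinase, rose by 2.37 (SE 0.36, limma adjusted p = 0.0140), and Cenpm and Spc24, parts of the kinetochore, by 2.61 (adjusted p = 0.0106) and 2.40 (adjusted p = 0.0115). Birc5 (survivin) was 1.31 to 2.32 FPKM in Control and 10.6, 81.9, 12.7 and 16.7 FPKM in AIA, with AIA 10 far above the rest. Among replication genes, the helicase subunits Mcm6, Mcm3, Mcm5 and Mcm2 rose by 2.48, 2.34, 2.10 and 1.93, and the ligase Lig1 by 2.30. In the cyclin list 8 of 29 rose and 2 inhibitors of cyclin kinases fell. Cdkn1c was 45.7, 18.8 and 3.80 FPKM in Control, against 1.18 to 3.67 FPKM in AIA (−3.20, adjusted p = 0.0143), and Cdkn2c, picked out after its values were seen, was 85.9, 31.1 and 5.77 FPKM in Control, against 8.97 to 11.7 FPKM in AIA (−2.21, adjusted p = 0.0287). Both were highest in Control 15. Nucleotide synthesis had 4 of 21 higher. Tyms, which makes thymidylate, rose by 1.40 (adjusted p = 0.0365), and Rrm2, a subunit of ribonucleotide reductase, was 2.37, 1.61 and 1421 FPKM in Control, against 13.9 to 39.7 FPKM in AIA. Its difference was 3.13 without Control 17 (adjusted p = 0.0121) and 0.15 with it (adjusted p = 0.971).

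Glycolysis had 1 of 19 genes higher and 3 lower, and 15 of the 19 were below 0 (median −0.69), with 18 of 19 below 0 in the fit of all 7 (median −0.94). Hk3, the hexokinase of myeloid cells, was 2.28, 1.18 and 1.10 FPKM in Control and 11.1, 11.8, 5.96 and 9.84 FPKM in AIA (1.96, limma adjusted p = 0.0266). Hk2, the hexokinase of muscle and fat, was 29.6, 14.1 and 113 FPKM in Control, against 2.69 to 4.46 FPKM in AIA (−2.25, adjusted p = 0.0218). The 2 hexokinase genes thus went opposite ways with no overlap in either. Tpi1 and Pfkm, a muscle phosphofructokinase, fell by 2.41 and 3.60. Pfkm was 3.90 FPKM in Control 17, inside its AIA range of 2.51 to 20.1 FPKM. Tpi1 was 268 FPKM there, above its AIA range of 21.1 to 55.6 FPKM. In amino acid transport and serine synthesis 3 of 21 rose and 2 fell. Slc7a5, which carries leucine and other large neutral amino acids, rose (2.29, adjusted p = 0.0372) and Slc1a5 and Slc43a1 fell, the last 2 with 549 and 14.03 FPKM in Control 15, their highest level. In Control 17 Slc7a5 was 14.3 FPKM, inside its AIA range of 8.75 to 21.2 FPKM. Slc1a5 was 24.6 FPKM there, below its AIA range of 29.3 to 32.6 FPKM. Slc43a1 was 0.365 FPKM there, inside its AIA range of 0.340 to 1.03 FPKM. With all 7 libraries 1 of the 21 rose and 1 fell. In cholesterol synthesis Fdft1, squalene synthase, fell alone of 19 (−1.86, adjusted p = 0.0268). In the fit of all 7, 17 of 19 were below 0 (median −0.76). Without Control 17, 7 of the 19 were above 0 (median −0.45), and against Control 16, 11 were (median 0.03). In ribosome biogenesis Npm1 rose alone of 22 (2.01, adjusted p = 0.0494), while 21 of 22 were above 0 (median 0.71) and 18 of 22 were above Control 16. Beside these counts, 2.42% of all tested genes were called higher and 6.69% lower, so the calls on Fdft1 and Npm1 say little about their lists.

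Lymphocyte and stromal genes depended on which Control library was used. None of the 8 B cell and 8 T cell markers passed in either fit. The B cell median was 5.72 against Control 15, 5.81 against Control 17 and −0.11 against Control 16. Fcer2a (CD23), a mark of naive and follicular B cells, was 153 FPKM in Control 16 and 68.6, 15.3, 89.4 and 60.2 FPKM in AIA, a difference of −1.62. Cd22 and Cr2 were below Control 16 as well, by 0.67 and 0.38, while Pax5 was above it by 1.42. T cell markers were above Control 16 in all 8 cases, with a median of 0.58. Glycam1, a ligand made by high endothelial venules, was 122 FPKM in Control 16 and 47.7, 55.4, 106 and 59.2 FPKM in AIA. Its value without Control 17 was 2.42 (limma adjusted p = 0.364), of the other sign. Cd44 and Vcam1, which mark and hold activated cells, rose by 2.43 (adjusted p = 0.0218) and 2.40 (adjusted p = 0.0145).

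**Figure D5:**
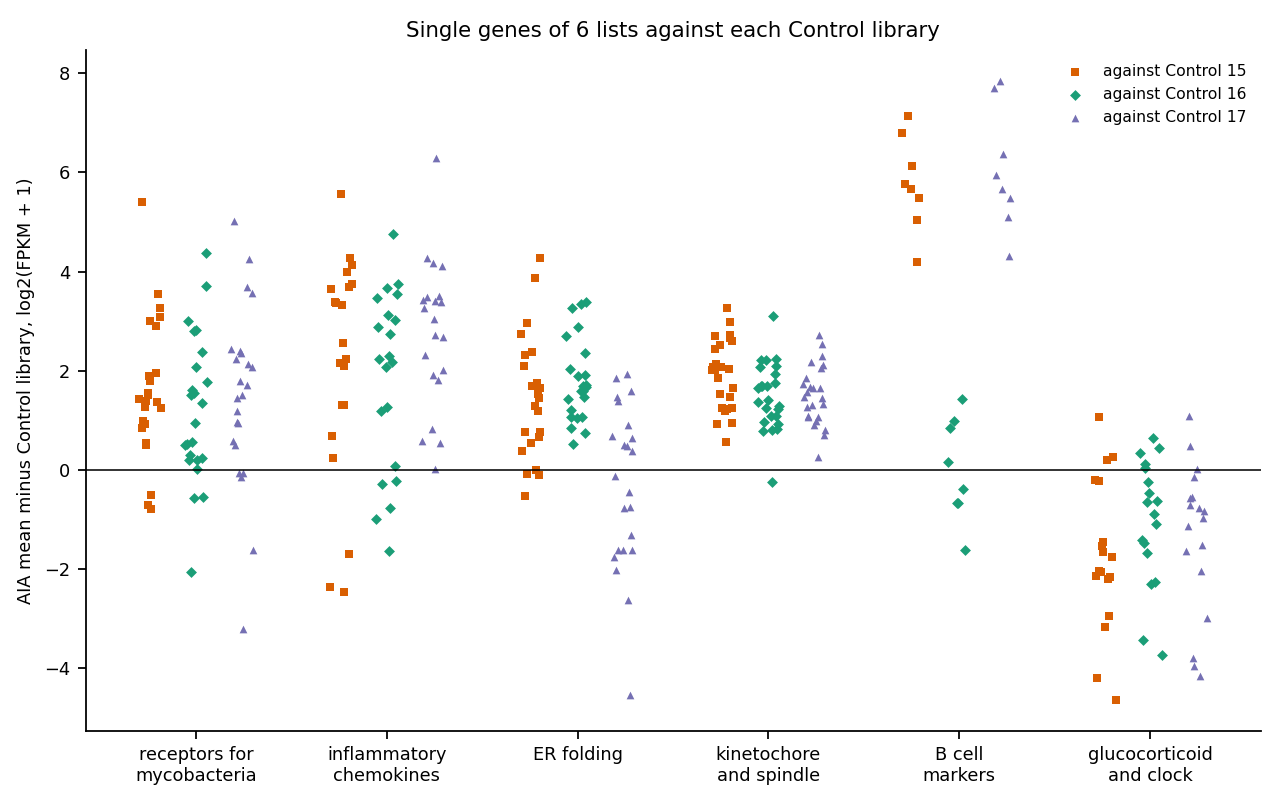
Single tested genes of 6 lists, with the AIA mean minus Control 15, 16 or 17 (symbols) on the log2(FPKM + 1) scale. B cell markers are far above 0 against Control 15 and 17 and around 0 against Control 16, whereas kinetochore genes lie above 0 against all 3 with 1 exception against Control 16.

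Among T cell activation genes 5 of 19 rose. Beside this count and those of the TNF and Bcl2 lists below, 2.42% of all tested genes were called higher. Batf, a factor of activated T and B cells, was 0.476, 10.1 and 4.22 FPKM in Control, against 25.1 to 43.9 FPKM in AIA (3.02, limma adjusted p = 0.0490). Gzmb and Prf1, the killing proteins of cytotoxic cells, were 496 and 529 FPKM in Control 17. Gzmb was 1.57 and 2.34 FPKM in Control 15 and 16 and 15.6, 18.9, 16.1 and 47.8 FPKM in AIA, so its call (2.97, adjusted p = 0.0190) held only without Control 17 (0.50, adjusted p = 0.877). In the TNF superfamily 3 of 25 rose, led by Tnfrsf17, the BCMA receptor of plasma cells, at 0.373, 0.318 and 0.0799 FPKM in Control and 7.70, 14.7, 6.08 and 5.99 FPKM in AIA (2.75, adjusted p = 0.0132). Cd27 and Lta were below Control 16 by 0.59 and 1.13. Of 16 Bcl2 family genes 4 rose. They were of both kinds, the survival genes Bcl2a1a (3.11, adjusted p = 0.0327) and Bcl2a1d (3.08, adjusted p = 0.0429), which are close copies that may share reads, and the death genes Bcl2l11 (BIM, 2.48, adjusted p = 0.0115) and Pmaip1 (NOXA, 2.10, adjusted p = 0.0342).

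In the matrix list 3 of 19 rose and 1 fell, beside 2.42% and 6.69% of all tested genes. Mmp3, stromelysin, was 12.2, 2.26 and 0.253 FPKM in Control and 35.9, 143, 43.1 and 78.6 FPKM in AIA (3.33, limma adjusted p = 0.0370), and Adamts1 was 25.3, 6.53 and 88.2 FPKM in Control, against 1.02 to 2.15 FPKM in AIA (−2.44, adjusted p = 0.0335). Col5a3 fell alone of 15 collagens (−3.66, adjusted p = 0.0275), with 107 FPKM in Control 15 and 13.7 and 2.31 FPKM in Control 16 and 17. As 6.69% of all tested genes were called lower, 1 call among 15 says little about collagens as a list. Of 19 eicosanoid genes Ptgs2 (COX-2) and Pla2g7 rose and Ptges, the inducible prostaglandin E synthase, fell. Ptgs2 was 0 and 0.0989 FPKM in Control 15 and 16, 13.7 FPKM in Control 17, against 1.59 to 2.68 FPKM in AIA (1.59, adjusted p = 0.0190, and 0.32, adjusted p = 0.845, with all 7). Ptges was 42.9, 13.6 and 42.5 FPKM in Control and 3.49, 3.21, 2.29 and 2.04 FPKM in AIA (−2.76, adjusted p = 0.0201). Ptgs2 and Ptges, enzymes of prostaglandin E synthesis, thus went opposite ways without Control 17.

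Of 30 genes whose proteins are targets or markers in human arthritis therapy 24 were tested. Without Control 17, 3 rose, among them Il1b and Ptgs2, and 0 fell, beside 2.42% and 6.69% of all tested genes. Tnf was 0.482, 11.6 and 0.477 FPKM in Control 15, 16 and 17 and 15.14, 11.46, 12.64 and 10.05 FPKM in AIA, so that Control 16 lay inside the AIA range (1.61, limma adjusted p = 0.220, and 0.06 against Control 16). Btk, the B cell kinase, was 16.8 FPKM in Control 16, against 28.1 to 38.05 FPKM in AIA (2.35, adjusted p = 0.0839). Ms4a1 (CD20) was 33.9 FPKM in Control 16, against 55.4 to 67.0 FPKM in AIA. Tnfsf11 (RANKL), which drives osteoclasts, was 3.76 FPKM in Control 16, listed at 0 in Control 15 and 17, against 3.35 to 8.39 FPKM in AIA. The kinases Jak1, Jak2, Jak3 and Tyk2 stood at 0.88, 0.65, 0.12 and −0.33, with adjusted p of 0.196 to 0.883, and Nr3c1, the glucocorticoid receptor, at −0.96 (adjusted p = 0.280). Il6 and Il17a were below the filter, at most 0.436 FPKM in any library for Il6, and Il17a was 1.63, 0, 0.192 and 0.352 FPKM in AIA and listed at 0 in all 3 Control libraries. Csf2ra was 56.4, 32.7 and 28.9 FPKM in AIA 5, 31 and 38 and listed at 0 in AIA 10, which had fewer genes above 0 in all.

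Of 18 tested glucocorticoid and clock genes 8 fell (6.69% of all tested genes did) and 0 rose without Control 17. With it 4 fell, and all 8 agreed in Control 16 (11.4% of all tested genes agreed as lower). Without AIA 38 or AIA 5 the count was 3, and without Control 15 it was 0. Nr1d1 (REV-ERB alpha), a repressor of the clock's activators, was 47.6, 24.9 and 14.2 FPKM in Control 15, 16 and 17 and 1.64, 0, 1.43 and 1.17 FPKM in AIA (−4.19, SE 0.49, limma adjusted p = 0.0106). Dbp was 76.1, 44.3 and 0.958 FPKM in Control, against 1.62 to 4.85 FPKM in AIA (−3.81, adjusted p = 0.0102), so it fell against Control 15 and 16 and not against Control 17. Tef, of the same family, was 54.5, 33.1 and 28.1 FPKM in Control, against 3.29 to 9.89 FPKM in AIA (−2.60, adjusted p = 0.0196). Per3 and Per2 fell by 2.74 and 1.87. The activators, picked out after their values were seen, did not pass, with Arntl (BMAL1) at 0.55 (adjusted p = 0.352) and Clock at 0.07 (adjusted p = 0.909). No source used here gives the time of day at which a node was taken. Fat and muscle markers were also higher in Control 15 and 16, and their part in these falls was not tested. Control 17, which does not look like the others of its group, had the lowest fat marker mean of the 7 libraries. Its Nr1d1 and Tef values were above every AIA library, and the part of its own tissue content in them was not tested.

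Adrenergic genes had 0 of 12 higher and 3 lower without Control 17, and 0 either way with it. Of all tested genes 6.69% were called lower without Control 17. Adrb3, the receptor of fat cells, was 212, 71.0 and 0.0193 FPKM in Control 15, 16 and 17, against 0.157 to 2.45 FPKM in AIA, and was thus high in the same libraries as the fat markers. Maob (−2.72, limma adjusted p = 0.0216) and Adrb1 (−2.63, adjusted p = 0.0225) fell, and neither gene overlapped between the groups. All 18 tested fat genes fell without Control 17, such as Adipoq, at 1294, 336 and 0 FPKM in Control and 1.23, 1.66, 13.6 and 2.64 FPKM in AIA, and with all 7 Fabp4 alone passed (adjusted p = 0.0404). Of 17 muscle genes 3 fell, and Acta1 was 951, 3710 and 16.1 FPKM in Control and 0.843, 88.5, 572 and 101 FPKM in AIA. Muscle RNA thus varied within both groups, with AIA 31 above Control 17.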

How the data were processed

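Trizol RNA of popliteal nodes was sequenced from NEBNext Ultra libraries, per the labels' protocols. For the genome build mm10, the submitters' processing notes name featureCounts 1.5.0-p3 and HISAT2 2.0.5, and they also name DESeq2 1.16.1 and StringTie 1.3.3b, with no roles given. The authors deposited 1 table of FPKM for 54987 genes. Values times gene length were whole multiples of 1 read within 0.01 of a step, and gave 13269763 to 18926894 reads per library. No strand setting is stated, so overlapping antisense genes, and near-identical copies (immunoglobulin segments, stefins, Serpina3g, Ly6c2, Bcl2a1a and Bcl2a1d), are uncertain.

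FPKM were scaled by the median of ratios for the log2 values, and printed FPKM are the deposited values before this scaling. Genes with at least 0.5 FPKM in at least 3 of the 7 libraries (15804) were tested on log2(FPKM + 1) with limma 3.58.1 (R 4.3.3), with a mean-variance trend and Benjamini-Hochberg adjustment at 0.05. The pseudocount of 1 understates changes of low genes. AIA was set against all 3 Control libraries, against 2 without the library with at least 100 FPKM of Prl8a2 (Control 17), and against Control 16 alone, where the lone library is assumed to vary like the AIA libraries. Where no fit is named, values are those without Control 17. Genes and lists were chosen with earlier results of these data known: the 14 genes per direction farthest from every Control library, the 5 largest differences per list, list members of the opposite sign against Control 16, markers and drug targets. Promoters are from RefSeq (GRCm38.p6). Alternatives were other scalings, pseudocounts, filters, fits and left-out libraries. Results on some genes are not reported here.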

Additional observations from a re-analysis of the deposited data

Results flagged for a closer look

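Among the 160 genes named, 18 had 1 AIA library far from the other 3 (a gap to the nearest library, as a share of the group's range, above Dixon's critical value for 4 samples). Chance alone gives about 1 in 20 groups only for normal values and independent genes. These were FPKM without logs, some genes are related, and some were picked out after their values were seen. The 18 therefore cannot be set against that rate. In 7 of the 18 the high library was AIA 10, the library with the fewest genes above 0: Psmb10 at 778.2 FPKM, Psmb9 at 333.2, Psmb8 at 311.4, Bcl2a1d at 129.6, Timp1 at 129.4, Birc5 at 81.94 and Bcl2a1a at 70.33. AIA 10 was the low library for Cd22, at 22.45 FPKM, and Tyk2, at 1.452 FPKM. AIA 38 was high for Serpina3g at 391.8 FPKM, Cxcl10 at 77.44, Gzmb at 47.76, Mcm2 at 18.48, Elane at 17.4 and Prtn3 at 14.6. AIA 31, which had the highest fat and muscle marker means of the AIA libraries, was high for Fhl1 at 31.8 FPKM and Adipoq at 13.57. AIA 5 was high for Acod1, at 34.7 FPKM. What set these libraries apart was not tested.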

How the results depend on the processing

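Counts are given as higher and lower at a limma adjusted p under 0.05. With all 7 libraries (340 and 444), the count was 21 and 24 with no filter, 224 and 9787 with pan-leukocyte scaling, 131 and 226 with voom on recovered reads, and 2 and 2 with the Acu libraries in the fit. Leaving out 1 library gave 4 (without Control 15) to 986 (without Control 16) higher and 0 (without AIA 38 or Control 15) to 1057 (without Control 17) lower. Without AIA 38, AIA 5 and AIA 31 the counts were 6 and 0, 9 and 1, and 27 and 20, and without AIA 10 they were 471 and 248. Without Control 17 (383 and 1057), the count was 168 and 961 with no filter, 142 and 6072 with pan-leukocyte scaling, 272 and 550 with a pseudocount of 0.1, 207 and 776 with voom, and 766 and 1661 with the Acu libraries. Leaving out 1 more library gave 0 (without Control 15) to 945 (without AIA 10) higher and 0 (without Control 15) to 1452 (without Control 16) lower. Against Control 16 alone (0 and 0), the count was 37 and 693 with 0.5 FPKM in at least 2 libraries, 109 and 2485 with no filter, 39 and 2501 with pan-leukocyte scaling, 3 and 0 with voom, 88 and 539 with the Acu libraries, and 0 to 438 higher and 0 to 871 lower with 1 AIA library left out, the highest without AIA 10. The cause of these moves was not tested.

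Of the calls on named genes, 0 changed sign under any alternative other than pan-leukocyte scaling. Under that scaling, in the fit without Control 17, the value was −0.79 for Spcs2, −0.67 for Krtcap2, −0.60 for Spcs3, −0.58 for Npm1, −0.53 for Tyms, −0.29 for Clec4a3, −0.25 for Hk3, −0.22 for Iigp1, −0.19 for Mcm5, −0.19 for Prf1, −0.18 for Mcm2, −0.14 for Cxcl9, −0.083 for Mcm3, −0.077 for Pla2g7, −0.075 for Sec11c and −0.042 for Igtp. With all 7 libraries it was −0.84 for Npm1, −0.65 for Tyms, −0.43 for Mcm2, −0.43 for Sec11c, −0.40 for Mcm3, −0.28 for Mcm5, −0.28 for Clec4a3, −0.17 for Creld2, −0.16 for Iigp1, −0.15 for Hk3 and −0.14 for Lig1. No paired analysis was possible because the Control and AIA libraries share no replicate number. Genes with few reads are limited by depth: a gene listed at 0 may be expressed below what these libraries detect.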
